A study of Mus musculus with 12 samples.

Results

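The subject is how mouse tumour-model cells with K27M mutant histone H3.3 and cells with wild-type H3.3 differed in their response to EPZ6438, which inhibits EZH2, a histone methyltransferase. All 12 libraries of the 12 in the series enter the comparison, since it needs both genotypes with and without the drug. The cells are labelled PDGF Neural Stem Cells, with PDGFB in the titles, and the series calls them mouse DIPG cells, after diffuse intrinsic pontine glioma of the brainstem. Their genotype is labelled H3WT or K27M. Every culture grew in neural stem cell medium with epidermal and basic fibroblast growth factors, and received DMSO, the solvent, or 3 µM EPZ6438 for 12 days. This gives 4 groups of 3 replicates: wild-type with DMSO, wild-type with the inhibitor, K27M with DMSO and K27M with the inhibitor. The sources used here do not give the promoter or vector behind PDGFB and the histone, nor whether a genotype is 1 clone or several. The labels number the replicates without saying that each was its own culture. The p-values therefore cover the spread between these samples alone, and that spread may be technical.

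EZH2 is the catalytic subunit of the Polycomb complex PRC2, which methylates lysine 27 of histone H3 and keeps developmental genes silent. In K27M H3.3 that lysine is a methionine, and the mutant protein is known to lower this methylation across most of the genome while some loci keep or gain it. Both the mutation and the drug therefore act on the same modification, and the comparison asks whether the drug changes the same genes by the same amount in both genotypes.

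The measured quantity is the difference of responses: the log2 fold change with the inhibitor in K27M cells minus that in wild-type cells, which is the interaction term of 1 edgeR quasi-likelihood fit over the 12 libraries. All differences of responses are on the log2 scale. A positive value means that the response was higher in K27M cells, whether through a larger rise or a smaller fall. Gene levels are in CPM, the counts scaled to a common library total with TMM factors, and a call means a Benjamini-Hochberg adjusted p below 0.05 over all 13040 genes tested. Total counts ran from 7864296 to 15691649 in wild-type libraries and from 10817162 to 23952278 in K27M libraries, with the K27M DMSO libraries deepest. Nes and Sox2, which mark neural stem cells, stood at 1261 to 1622 and 279 to 437 CPM over the 12 libraries, and all 22 listed stem cell markers were measured. Of 13 microglial and 11 endothelial markers, 2 and 4 were abundant enough to test. Wild-type DMSO replicate 1 stood apart: the chi-square per gene was 23.3 against replicate 2 and 19.6 against replicate 3, while those libraries gave 3.17 against each other. Its deviation from the mean of its own group of 3 followed the GC content of transcripts (Spearman -0.67 across 12982 genes). Several other libraries also followed it. Their values ran from -0.48 for K27M inhibitor replicate 1 to 0.54 for wild-type DMSO replicate 2 and wild-type inhibitor replicate 2. Values with each library's GC trend removed, called GC-adjusted here, therefore stand beside the results. Counts without wild-type DMSO replicate 1 are given for all genes and for the p53, mitosis and PRC2 lists. The counts of many other gene lists also moved without that library and are not given. Where 2 sets of 3 library values stand together for a genotype, DMSO comes first, replicates 1 to 3 in order.

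The inhibitor response differed between genotypes in 35.8% of the genes tested: 2606 genes (20.0%) responded higher and 2056 (15.8%) lower in K27M cells, 160 and 391 of them by at least 2-fold. With the GC trend removed 1420 genes (10.9%) were higher and 1374 (10.5%) lower, 90 and 217 by at least 2-fold. Of these calls 1929 were shared with the first count, and 3 were called there in the opposite direction. Without wild-type DMSO replicate 1 the counts were 3034 and 3786. Without both that library and the GC trend they were 2182 and 2043, with 172 genes called opposite to the first count. The difference ran with GC content: over 10 equal classes of genes by GC content its median went from -0.71 on the log2 scale in the lowest to 0.41 in the highest, and the Spearman correlation across genes was 0.67. Whether the GC trend arose in the cells or in the libraries was not tested.

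**Figure D1:**
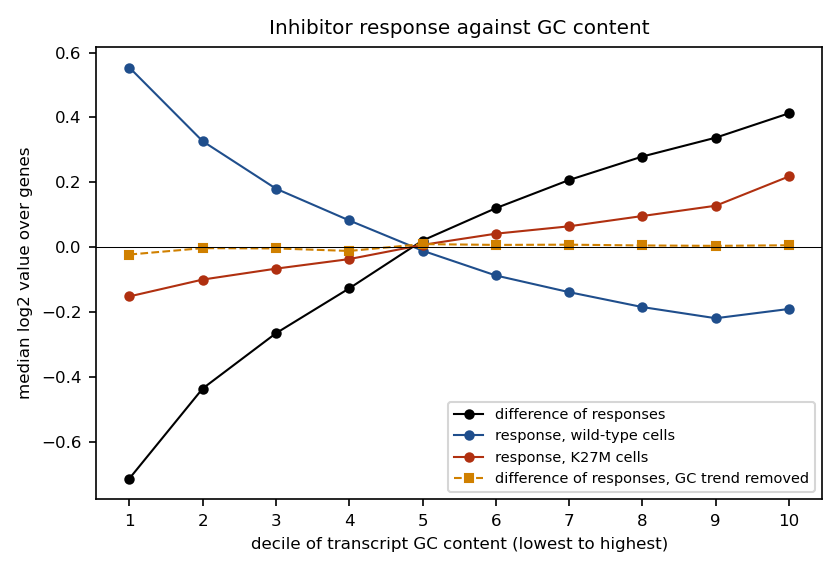
Median log2 value over genes (y axis) in each of 10 equal classes of genes by the GC content of their transcripts (x axis). The difference of responses (black) rises from -0.71 to 0.41, the wild-type response (blue) falls from 0.55 to -0.19 and the K27M response (red) rises from -0.15 to 0.22. The GC-adjusted median difference (orange) lies between -0.02 and 0.01.

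The difference arose in several ways. Of the genes that responded higher in K27M cells, 411 had a positive and 735 a negative fold change in both genotypes, and 1460 had opposite signs. Both single responses passed the test, in opposite directions, in 238 of these and in 182 of the genes that responded lower. The genotypes lay closer together with the inhibitor than without it for 2492 of the 2606 genes that responded higher (95.6%) and 1913 of the 2056 that responded lower (93.0%). With the GC trend removed these shares were 87.5% and 84.0%. Since the difference of responses equals the genotype difference under the inhibitor minus that in DMSO, these shares are a description and not a second finding. Over all genes the SD of the K27M to wild-type log2 fold change was 0.61 in DMSO and 0.27 under the inhibitor (0.47 and 0.27 with the GC trend removed). The single responses were called in 7143 genes in wild-type cells (27.1% of all rose and 27.7% fell) and 5234 in K27M cells (21.5% rose and 18.7% fell). In DMSO 8201 genes (62.9%) differed between genotypes, 799 being at least 2-fold higher and 174 at least 2-fold lower in K27M cells. Under the inhibitor 244 (1.87%) differed, 4 and 7 of them by at least 2-fold. The GC-adjusted counts in DMSO were 2817 higher and 3032 lower in K27M cells, 277 and 101 by at least 2-fold. With the GC trend removed 879 genes (6.74%) differed under the inhibitor. Without wild-type DMSO replicate 1, and with the GC trend left in, 219 were higher and 472 lower in K27M cells under the inhibitor. That library is in neither inhibitor group, but the 1 fit estimated the spread of each gene from all libraries together. The cause of the change was not tested.

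**Figure D2:**
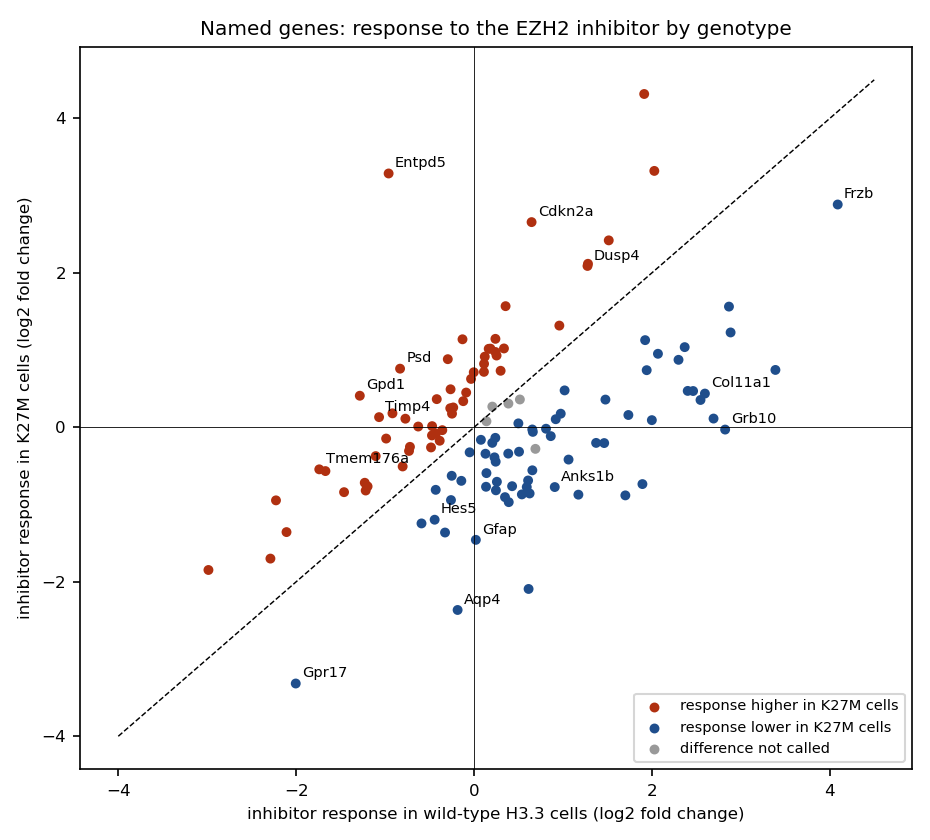
Inhibitor response (log2 fold change) in wild-type H3.3 cells (x axis) and in K27M cells (y axis) for 127 of the 138 named genes; 11 lie beyond the axes. Points above the dashed line of equal response were called higher in K27M cells (red), points below it lower (blue), and grey points were not called; Gpd1 and Psd fall in wild-type and rise in K27M cells, and Anks1b does the reverse.

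Among named genes at or above the median abundance of 35.9 CPM, Cdkn2a had the largest positive difference that did not depend on which transcripts were summed. The locus encodes p16Ink4a, an inhibitor of the cyclin D kinases, and p19Arf, which stabilises p53 by binding Mdm2; PRC2 is known to silence it in growing cells. Cdkn2a stood at 56.1, 60.4 and 65.8 CPM in wild-type DMSO libraries and 84.9, 103 and 97.3 CPM in wild-type inhibitor libraries. It stood at 13.9, 13.7 and 14.8 CPM in K27M DMSO libraries and 83.7, 94.0 and 90.1 CPM in K27M inhibitor libraries. The K27M DMSO libraries lay below all others, and the inhibitor groups overlapped. The inhibitor raised Cdkn2a 1.57-fold in wild-type cells and 6.31-fold in K27M cells, a difference of 2.01 (SE 0.12, adjusted p = 3.21e-06; GC-adjusted 1.63, adjusted p = 1.6e-07). Under the inhibitor K27M and wild-type cells differed by -0.09 on the log2 scale (adjusted p = 0.659). The call held in each of the 12 fits that left out 1 library, with differences from 1.89 to 2.05.

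The 2 products start at separate promoters, and both transcripts were measured. The p16Ink4a transcript, Cdkn2a-201, lies at chr4:89274471-89282192 and the p19Arf transcript, Cdkn2a-202, at chr4:89274541-89294653, both on the minus strand of GRCm38 (GENCODE M21). They share their downstream exons, so kallisto divides the shared reads between them by estimation. The 250 bases before each RefSeq start are shown because the responses of the 2 transcripts are compared next; capitals mark CG dinucleotides, the sites of DNA methylation.
p19Arf promoter, chr4:89294620-89294869, minus strand: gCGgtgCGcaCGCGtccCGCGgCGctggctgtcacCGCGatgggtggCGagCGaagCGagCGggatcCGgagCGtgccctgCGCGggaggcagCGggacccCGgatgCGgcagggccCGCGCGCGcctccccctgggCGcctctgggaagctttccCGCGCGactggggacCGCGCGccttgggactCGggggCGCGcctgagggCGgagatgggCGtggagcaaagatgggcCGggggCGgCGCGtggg
p16Ink4a promoter, chr4:89282193-89282442, minus strand: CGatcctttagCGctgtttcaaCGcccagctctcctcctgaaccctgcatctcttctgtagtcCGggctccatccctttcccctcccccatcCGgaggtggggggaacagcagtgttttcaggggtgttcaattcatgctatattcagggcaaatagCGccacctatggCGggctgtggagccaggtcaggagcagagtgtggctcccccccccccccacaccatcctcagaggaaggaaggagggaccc
The p19Arf window holds 40 CG dinucleotides, a number that 1.31% of the 32851 RefSeq windows of this length reach, and the p16Ink4a window holds 7, which 46.3% reach. The p16Ink4a transcript had 13.7, 14 and 19.3 CPM in wild-type DMSO libraries and 37.2, 41.5 and 42.4 CPM in wild-type inhibitor libraries. In K27M cells it had 0.702, 1.30 and 1.20 CPM with DMSO and 32.2, 41.4 and 32.5 CPM with the inhibitor. Both inhibitor groups lay above both DMSO groups, and the K27M DMSO libraries held 15.0, 29.0 and 27.8 counts of this transcript. Its difference of responses was 3.67 (SE 0.31, adjusted p = 0.000394) in the same fit made per transcript, in which 5.88% of 33560 transcripts were called. The p19Arf transcript had 43.5, 45.5 and 45.9 CPM in wild-type DMSO libraries and 45.9, 62.6 and 52.8 CPM in wild-type inhibitor libraries. In K27M cells it had 13.3, 12.7 and 13.9 CPM with DMSO and 48.7, 51.4 and 56.2 CPM with the inhibitor. Its wild-type response did not pass (0.26, SE 0.11, adjusted p = 0.130), its K27M response was 1.97, and its difference was 1.71 (SE 0.15, adjusted p = 0.000445). Whether the 2 transcripts differ from each other in this difference was not tested.

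**Figure D3:**
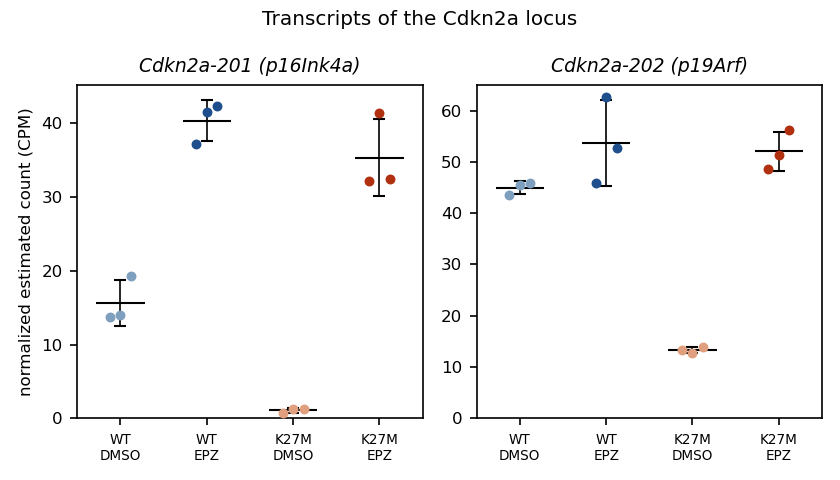
Estimated CPM (y axis) of the p16Ink4a transcript (left) and the p19Arf transcript (right) of Cdkn2a in the 12 libraries by group (x axis); points are libraries, lines are means and bars are SD (n = 3). K27M cells with DMSO have 0.702 to 1.30 and 12.7 to 13.9 CPM, and with the inhibitor 32.2 to 41.4 and 48.7 to 56.2 CPM.

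CDK inhibitors responded in both directions, where 20.0% of all genes responded higher and 15.8% lower (GC-adjusted 10.9% and 10.5%). Of 7, Cdkn2a included, 2 responded higher and 2 lower in K27M cells (GC-adjusted 2 and 3), at a median of -0.12 (GC-adjusted -0.37). Cdkn1a, the p53 target that encodes p21, had 342, 418 and 416 CPM in wild-type DMSO libraries, 448, 498 and 456 CPM in wild-type inhibitor libraries, 279.9, 275 and 280.0 CPM in K27M DMSO libraries and 528, 535 and 528 CPM in K27M inhibitor libraries. The K27M libraries were the lowest without and the highest with the drug, a difference of 0.68 (SE 0.10, adjusted p = 0.000838; GC-adjusted 0.42, adjusted p = 7.56e-05). Cdkn1c, the imprinted gene for p57, rose 4.92-fold in wild-type cells, from 4.10, 5.37 and 3.93 to 19.5, 22.6 and 23 CPM, and 1.83-fold in K27M cells, from 9.89, 9.70 and 9.21 to 15.2, 18.7 and 19.1 CPM. Its difference was -1.43 (SE 0.18, adjusted p = 0.000373; GC-adjusted -1.81, adjusted p = 1.38e-05). Cdkn1b, which encodes p27, fell in K27M cells from 162, 169 and 162 to 114, 106 and 106 CPM and had 105, 93.0 and 96.8 CPM with DMSO and 108, 104 and 114 CPM with the inhibitor in wild-type cells, a difference of -0.73 (SE 0.08, adjusted p = 0.000214; GC-adjusted -0.37, adjusted p = 0.00222). Cdkn2b, the neighbour of Cdkn2a that encodes p15Ink4b, had a difference of -0.15 (SE 0.20, adjusted p = 0.568; GC-adjusted -0.46, adjusted p = 0.0597) and was called in 0 of 12 fits that left out a library.

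**Figure D4:**
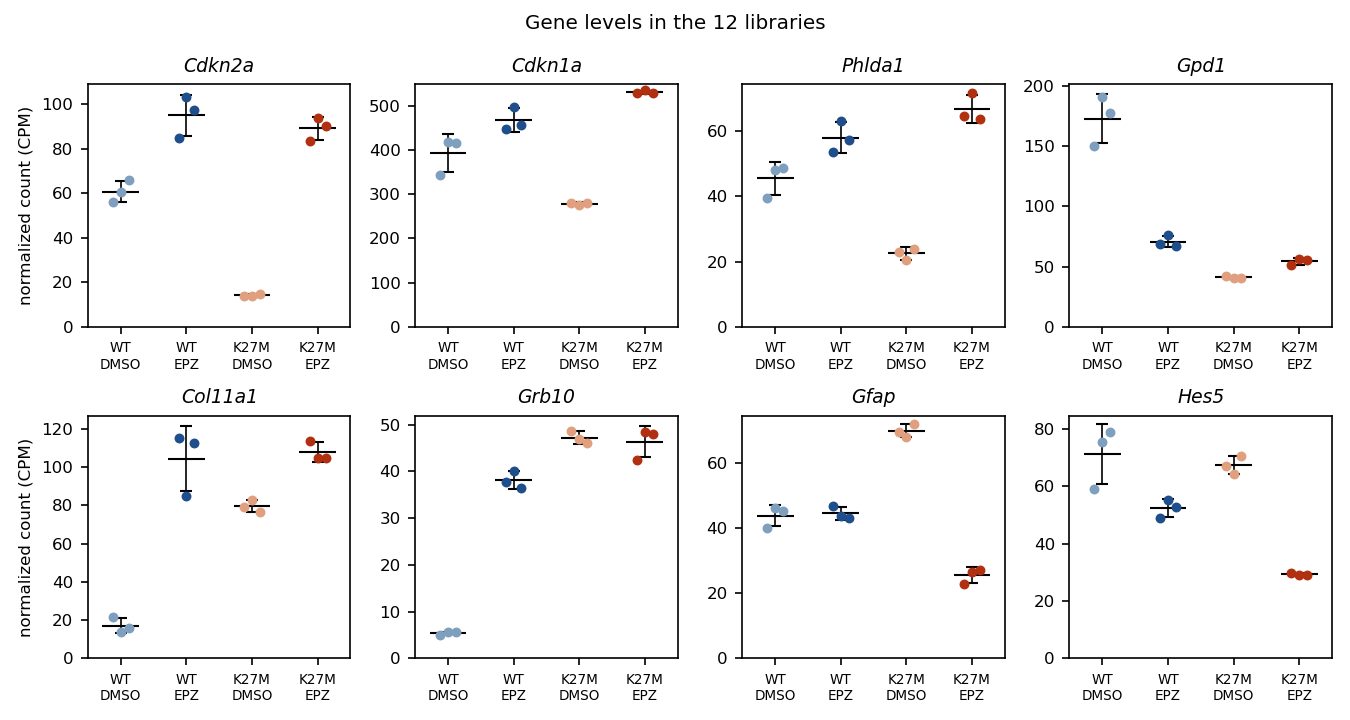
Normalized CPM (y axis) of 8 genes in the 12 libraries by group (x axis); points are libraries, lines are means and bars are SD (n = 3). Cdkn2a, Cdkn1a and Phlda1 are lowest in K27M cells with DMSO, Grb10 and Col11a1 are lowest in wild-type cells with DMSO, and Gfap and Hes5 are lowest in K27M cells with the inhibitor.

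Genes that p53 activates responded higher in K27M cells more often than lower. Of 25, 11 responded higher and 4 lower in K27M cells (GC-adjusted 15 and 4), at a median of 0.14 (GC-adjusted 0.32). Over all genes 20.0% were higher and 15.8% lower (GC-adjusted 10.9% and 10.5%), and the median was 0.02. In wild-type cells 17 of the 25 rose and 3 fell, where 27.1% and 27.7% of all genes did. In K27M cells 19 rose and 2 fell, where 21.5% and 18.7% of all genes did. Without wild-type DMSO replicate 1 the counts of higher and lower were 10 and 7, where those of all 13119 genes were 3034 and 3786. With the GC trend removed as well they were 15 and 4, where those of all genes were 2182 and 2043. Bax, which encodes an activator of mitochondrial apoptosis, had 204, 247 and 246 CPM with DMSO and 212, 240.2 and 225 CPM with the inhibitor in wild-type cells. In K27M cells it had 136, 129 and 141 and 229, 226 and 233 CPM, so the inhibitor groups overlapped where the DMSO groups did not, and its difference was 0.80 (SE 0.10, adjusted p = 0.000446; GC-adjusted 0.42, adjusted p = 7.67e-05). Phlda3, an inhibitor of AKT, rose 2.02-fold in K27M cells, from 74.0, 73.4 and 75.8 to 138, 159.7 and 155 CPM, and its wild-type response did not pass (0.17, adjusted p = 0.0598). The difference was 0.85 (SE 0.10, adjusted p = 0.000214; GC-adjusted 0.42, adjusted p = 0.00116). Sesn2 (0.83; GC-adjusted 0.46), Aen (0.82; GC-adjusted 0.59) and Tnfrsf10b (0.83; GC-adjusted 0.86) were also called higher under both. Tnfrsf10b encodes a death receptor, Aen a nuclease of apoptosis and Sesn2 an inhibitor of mTORC1. Perp, a desmosome gene, went the other way, with 1.75, 1.66 and 1.67 CPM with DMSO and 7.10, 5.85 and 6.49 CPM with the inhibitor in wild-type cells and 2.69, 2.65 and 2.69 and 5.55, 6.59 and 5.45 CPM in K27M cells. The difference for Perp was -0.79 (SE 0.20, adjusted p = 0.0135; GC-adjusted -0.70, adjusted p = 0.0311). Btg2, an antiproliferative gene, also responded lower. The difference for Btg2 was -0.64 (SE 0.07, adjusted p = 0.000199; GC-adjusted -0.66, adjusted p = 6.52e-06). The calls of Gdf15 (1.28) and Rrm2b (-0.68) held in 4 and 3 of the 12 fits without a library, and Rrm2b stood at 0.06 with the GC trend removed. Bax, Sesn2, Aen, Tnfrsf10b and Btg2 are named to show the list and were chosen after their values were seen.

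The genes that ERK signalling induces as its own brakes, with the ETV transcription factors it activates, had the highest median difference of the gene lists as measured. Of 19, 14 responded higher and 2 lower in K27M cells (GC-adjusted 12 and 1), at a median of 0.47 (GC-adjusted 0.33). Of all genes 20.0% responded higher and 15.8% lower (GC-adjusted 10.9% and 10.5%). In wild-type cells 9 rose and 4 fell, and in K27M cells 12 rose and 0 fell. Phlda1, an inhibitor of receptor signalling and AKT, had 39.6, 48.1 and 48.9 CPM in wild-type DMSO libraries and 53.7, 63.1 and 57.4 CPM in wild-type inhibitor libraries. It had 23.1, 20.4 and 24.0 CPM in K27M DMSO libraries and 64.8, 71.8 and 63.7 CPM in K27M inhibitor libraries, so K27M cells went from the lowest to the highest group. The difference for Phlda1 was 1.21 (SE 0.14, adjusted p = 0.000199; GC-adjusted 0.84, adjusted p = 1.54e-05). Dusp4, a phosphatase of ERK, rose 2.42-fold in wild-type cells, from 27.9, 33.2 and 34.6 to 75, 80.3 and 76.1 CPM, and 4.26-fold in K27M cells, from 23.1, 21.5 and 24.7 to 98.6, 99.9 and 96.3 CPM. The difference for Dusp4 was 0.81 (SE 0.11, adjusted p = 0.000568; GC-adjusted 0.51, adjusted p = 0.000320). Spry1, a sprouty antagonist of receptor tyrosine kinases, rose 1.30-fold in wild-type cells, from 192, 209 and 207 to 249.8, 275 and 263 CPM, and 2.02-fold in K27M cells, from 148, 153 and 152 to 298, 306 and 314 CPM. The difference for Spry1 was 0.64 (SE 0.07, adjusted p = 0.000137; GC-adjusted 0.33, adjusted p = 0.000654). Dusp6 (0.53; GC-adjusted 0.55), Spry4 (0.47; GC-adjusted 0.36) and Spry2 (0.40; GC-adjusted 0.62) were higher with and without the GC trend, as was Etv5 (0.38 and 0.24). Etv1, an ETS factor, was the exception, with 75.7, 50.8 and 50.8 CPM rising to 118, 95.6 and 109.8 CPM in wild-type cells and 118, 114 and 109.8 against 115, 101 and 101 CPM in K27M cells. The difference for Etv1 was -0.98 (SE 0.19, adjusted p = 0.00402; GC-adjusted -0.40, adjusted p = 0.000503). Spred1, another ERK antagonist, was lower at -0.45, a call that held in 4 of 12 fits without a library, and stood at 0.18 with the GC trend removed. Spry1, Spry2, Spry4, Dusp6 and Etv5 were named after their values were seen.

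**Figure D5:**
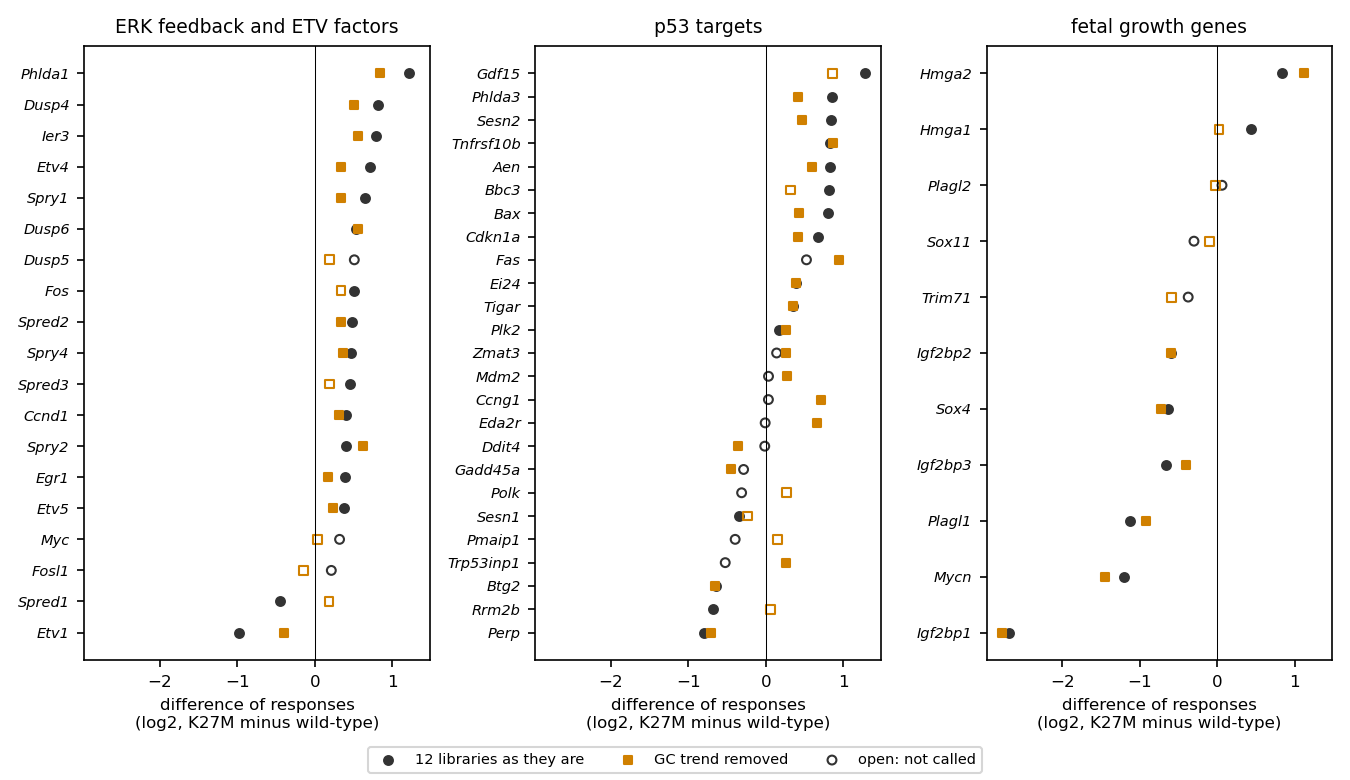
Difference of responses on the log2 scale (x axis, K27M minus wild-type) of each measured member (y axis) of 3 gene lists, as measured (black circles) and with each library's GC trend removed (orange squares); open symbols were not called. Most ERK feedback genes lie right of 0 in both, Ccng1 and Eda2r of the p53 targets move from near 0 to 0.71 and 0.65, and Igf2bp1 lies lowest at -2.69 and -2.77.

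Several genes fell with the inhibitor in wild-type cells and rose with it in K27M cells. Gpd1, the cytosolic glycerol phosphate dehydrogenase, fell 2.44-fold in wild-type cells, from 150.1, 191 and 177 to 68.9, 76.2 and 67.1 CPM, and rose 1.33-fold in K27M cells, from 42.3, 40.3 and 40.2 to 51.3, 56.4 and 55.5 CPM. No groups overlapped, and the difference was 1.69 (SE 0.12, adjusted p = 1.22e-05; GC-adjusted 1.36, adjusted p = 1.68e-07). Psd, an activator of the small GTPase ARF6, went from 60.7, 72.4 and 71.9 to 36.0, 41.4 and 37.4 CPM in wild-type cells and from 25.7, 26.0 and 26.8 to 42.6, 45.7 and 44.8 CPM in K27M cells. The difference for Psd was 1.59 (SE 0.11, adjusted p = 8.92e-06; GC-adjusted 1.17, adjusted p = 1.6e-07). Timp4, an inhibitor of matrix metalloproteinases, went from 156, 161 and 164 to 77.4, 75.3 and 76.8 CPM in wild-type cells and from 69.7, 64.5 and 67.3 to 74.5, 75.2 and 71.1 CPM in K27M cells, so that 3 of the 4 groups lay between 64.5 and 77.4 CPM. The difference for Timp4 was 1.20 (SE 0.07, adjusted p = 2.04e-06; GC-adjusted 1.31, adjusted p = 1.68e-07). Ptprn, a protein of dense-core vesicles, went from 59.8, 72.1 and 67.7 to 50.6, 57.9 and 53.7 CPM in wild-type cells and from 26.1, 28.2 and 31.2 to 50.4, 54.8 and 52.6 CPM in K27M cells (1.18, SE 0.12, adjusted p = 0.000123; GC-adjusted 0.79, adjusted p = 2.2e-05).

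Other genes rose more or fell less in K27M cells. Tle6, a Groucho family corepressor, rose 2.20-fold in K27M cells, from 35.0, 34.5 and 34.4 to 74.6, 78.6 and 75.9 CPM, and had 54.0, 69.8 and 63.0 CPM with DMSO and 56.0, 60.1 and 54.1 CPM with the inhibitor in wild-type cells. The difference for Tle6 was 1.27 (SE 0.11, adjusted p = 4.74e-05; GC-adjusted 0.95, adjusted p = 1.79e-06). Tmem176a, a membrane protein gene, fell in both, 3.34-fold in wild-type cells, from 418, 497 and 484 to 134, 147 and 138 CPM, and 1.46-fold in K27M cells, from 224, 227 and 232 to 159.7, 155 and 154 CPM. The difference for Tmem176a was 1.20 (SE 0.09, adjusted p = 1.35e-05; GC-adjusted 1.11, adjusted p = 4.44e-07). Fzd10, a Wnt receptor, likewise fell 3.18-fold and 1.48-fold. The difference for Fzd10 was 1.10 (SE 0.15, adjusted p = 0.000562; GC-adjusted 0.78, adjusted p = 0.000134). Sppl2b, an intramembrane protease, fell 1.89-fold in wild-type cells and did not pass in K27M cells (0.18, adjusted p = 0.126; difference 1.10, SE 0.13, adjusted p = 0.000219; GC-adjusted 0.69, adjusted p = 1.69e-05). Entpd5, a nucleotide hydrolase of the endoplasmic reticulum, had the largest fitted value of the named genes, 4.25 (SE 0.52, adjusted p = 0.000303), but it rests on which transcripts were summed. The transcripts listed in all 4 tables gave 8.08, 4.90 and 0.967 CPM in K27M DMSO libraries and 86.3, 93.2 and 88.5 CPM in wild-type DMSO libraries. 2 transcripts that are not listed in every table, Entpd5-203 and Entpd5-205, held 541, 651 and 363 and 580, 675 and 974 counts in the K27M DMSO libraries, and at most 1.1 counts in the wild-type DMSO libraries. With all listed transcripts summed the levels were 66.4, 67.4 and 68.1 CPM in K27M DMSO libraries and 88.1, 89.4 and 87.2 CPM in wild-type DMSO libraries, and the difference of responses was 0.43 (SE 0.07, adjusted p = 0.000858). The fold changes were then -0.92 in wild-type and -0.48 in K27M cells, of the same sign.

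Among named genes at or above 35.9 CPM, the largest negative differences were in genes that the inhibitor raised in wild-type cells and that K27M cells already had at a high level with DMSO. Col11a1, a fibrillar collagen gene, rose 6.05-fold in wild-type cells, from 21.5, 13.9 and 16 to 115, 84.9 and 113 CPM, and 1.35-fold in K27M cells, from 79.2, 82.8 and 76.8 to 114, 105 and 105 CPM. The wild-type DMSO libraries lay below all others. The difference for Col11a1 was -2.16 (SE 0.20, adjusted p = 5.5e-05; GC-adjusted -2.06, adjusted p = 8.37e-06). Pcdh17, a protocadherin of neuronal adhesion, rose in wild-type cells from 17.2, 6.64 and 9.20 to 74.1, 51.9 and 70.8 CPM and stood at 62.2, 53.5 and 53.3 CPM with DMSO and 80.9, 67.9 and 67.1 CPM with the inhibitor in K27M cells. The difference for Pcdh17 was -2.19 (SE 0.34, adjusted p = 0.00111; GC-adjusted -1.92, adjusted p = 0.000306). Apcdd1, a membrane inhibitor of Wnt signalling, rose 5.29-fold in wild-type cells, from 15.3, 15.0 and 16.5 to 79.0, 87.9 and 81.1 CPM, and 1.39-fold in K27M cells, from 31.9, 37.1 and 36.0 to 47.9, 49.1 and 48.8 CPM. K27M cells thus had the higher level with DMSO and the lower level with the inhibitor, where the genotypes differed by -0.77 (adjusted p = 0.000233; difference of responses -1.93, SE 0.10, adjusted p = 9.84e-07; GC-adjusted -2.28, adjusted p = 1.1e-07). Fndc3c1 (-1.99, SE 0.36, adjusted p = 0.00240; GC-adjusted -1.46, adjusted p = 0.000432), Igsf10, an immunoglobulin superfamily gene (-1.91, SE 0.38, adjusted p = 0.00381; GC-adjusted -1.62, adjusted p = 0.00656), and Alcam, a cell adhesion molecule (-1.67, SE 0.20, adjusted p = 0.000245; GC-adjusted -1.23, adjusted p = 4.06e-06), followed the same pattern. The Igsf10 value was -1.30 with all listed transcripts summed.

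Rps6ka6, a kinase of the RSK family, had 21, 16.7 and 13.9 CPM with DMSO and 59.2, 28.2 and 47.9 CPM with the inhibitor in wild-type cells, and 66.0, 63.3 and 57.4 and 61.4, 45.2 and 55.7 CPM in K27M cells. The difference for Rps6ka6 was -1.57 (SE 0.33, adjusted p = 0.00491; GC-adjusted -0.87, adjusted p = 0.00815). Cacna2d1, a calcium channel subunit, had 49.3, 29.7 and 31.1 and 93.7, 52.8 and 85.8 CPM in wild-type cells and 123, 111 and 112 and 97.4, 78.0 and 83.7 CPM in K27M cells. The difference for Cacna2d1 was -1.48 (SE 0.31, adjusted p = 0.00482; GC-adjusted -1.02, adjusted p = 0.00230). The calls of the Src family kinase gene Yes1 (-1.41, and -0.79 with the GC trend removed) and of Fut9, a fucosyltransferase gene (-1.48 and -0.47), held in 5 and 3 of those 12 fits. In both genes wild-type DMSO replicate 1 was more than 2-fold above the other 2 replicates.

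Another set rose with the inhibitor in wild-type cells and fell in K27M cells. Anks1b, a postsynaptic scaffold gene, rose 1.88-fold in wild-type cells, from 53.1, 39.1 and 39.3 to 89.7, 70.0 and 88.1 CPM, and fell 1.71-fold in K27M cells, from 111, 105 and 107 to 70.4, 54.5 and 63.9 CPM. The difference for Anks1b was -1.68 (SE 0.19, adjusted p = 0.000203; GC-adjusted -1.50, adjusted p = 2.43e-05). Tmem47 (-1.37; GC-adjusted -0.51), a cell junction gene, Chrdl1 (-1.25; GC-adjusted -0.67), a BMP antagonist, and Eps15 (-1.19; GC-adjusted -0.63), an endocytic adaptor, did the same. In these 3 genes the wild-type groups overlapped, and replicate 1 was the highest of the wild-type DMSO libraries.

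Hoxa3, Hoxa4 and Hoxa5 of the HoxA cluster rose more in K27M than in wild-type cells. These genes pattern the body axis and are textbook targets of Polycomb repression. Of 7 Hox genes measured through transcripts in all 4 tables, these rose in both genotypes and responded higher in K27M cells. Hoxa5 lies at chr6:52201754-52204587 and Hoxa10 at chr6:52231197-52240854, both on the minus strand of GRCm38. Hoxa5 rose from 8.43, 9.18 and 8.20 to 55.0, 64.2 and 61.0 CPM in wild-type cells and from 1.30, 1.19 and 1.13 to 56.8, 59.1 and 54.5 CPM in K27M cells. The DMSO groups did not overlap and the inhibitor groups did, with a difference of 2.74 (SE 0.13, adjusted p = 8.68e-07; GC-adjusted 2.71, adjusted p = 1.84e-07). Hoxa4 rose from 2.20, 3.03 and 2.33 to 8.87, 8.66 and 10.8 CPM and from 0.511, 0.441 and 0.252 to 7.29, 8.49 and 8.54 CPM (2.40, SE 0.31, adjusted p = 0.000408; GC-adjusted 2.05, adjusted p = 0.000690), and Hoxa3 from 2.35, 4.30 and 4.0 to 28.8, 33.8 and 33.8 CPM and from 0.975, 0.970 and 0.967 to 30.1, 29.7 and 31.8 CPM. The difference for Hoxa3 was 1.77 (SE 0.25, adjusted p = 0.000625; GC-adjusted 1.57, adjusted p = 0.000320). Hoxa9 was barely detected in wild-type cells with DMSO, with 1, 0 and 2 counts, and had 1.16, 0.706 and 1.01 CPM in K27M cells with DMSO. Under the inhibitor it had 5.83, 5.78 and 5.35 CPM in wild-type and 3.54, 2.46 and 3.36 CPM in K27M cells. Hoxa10 had 1.81, 0.661 and 1.64 CPM in K27M DMSO libraries, 8.62, 12.8 and 13.7 CPM in wild-type inhibitor libraries and 8.53, 5.08 and 8.45 CPM in K27M inhibitor libraries, against 2, 1 and 1 counts in wild-type DMSO libraries. Every transcript in a deposited table has at least 5 counts in at least 3 of its libraries. Hoxa9 and Hoxa10 therefore entered the DMSO table through the K27M libraries and the wild-type table through the inhibitor libraries, so they had to be higher there, and their lower response in K27M cells is a description only. Hoxa2, next to Hoxa3 in the cluster, was not called (-0.84, SE 0.30, adjusted p = 0.0866; GC-adjusted -0.80, adjusted p = 0.138). Transcripts with values for all 12 libraries in any of the tables gave 25 Hox genes in all, and 14 of them had 0 counts in wild-type DMSO libraries and 10 in K27M DMSO libraries. Over all 13300 genes fitted this way, 58 and 33 had 0 counts there. Genes with 0 counts in a DMSO group had to be listed through other libraries, so these counts are a description only. Under the inhibitor 2 of the 25 differed between genotypes, Hoxa10 and Hoxd9, both lower in K27M cells, where 2.22% of the 13300 genes in that fit differed. The 250 bases before the Hoxa5 start are shown as the promoter of the HoxA gene with the highest level under the inhibitor; capitals mark CG dinucleotides, of which there are 28, a number that 7.61% of windows reach.
Hoxa5 promoter, chr6:52204588-52204837, minus strand: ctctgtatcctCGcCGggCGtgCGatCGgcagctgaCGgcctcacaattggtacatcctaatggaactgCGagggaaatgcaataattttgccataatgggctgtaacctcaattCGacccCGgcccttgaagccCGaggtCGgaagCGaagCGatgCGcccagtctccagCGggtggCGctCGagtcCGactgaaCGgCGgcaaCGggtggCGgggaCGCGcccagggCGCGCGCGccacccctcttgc

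The CG content of promoters was counted for the genes that differed. Where a gene had several RefSeq starts, the window with the most CG dinucleotides was taken. The median number over all 32851 windows, without that choice, was 6. In the 250 bases taken for each gene, the median number was 17 over the 9872 tested genes with a RefSeq window. It was 18 for genes that responded higher and 20 for genes that responded lower. For those that differed by at least 2-fold it was 12 and 14.5. With the GC trend removed the 4 medians were 17, 20, 10 and 14. Transcripts, in contrast, had a median GC content of 55.4% for genes that responded higher and 44.5% for genes that responded lower, and 51.2% and 50.8% with the trend removed. These are descriptions without a test. The window of Col11a1 is shown as an example from a gene that rose mainly in wild-type cells, and holds 7 CG dinucleotides, in capitals.
Col11a1 promoter, chr3:114030290-114030539, plus strand: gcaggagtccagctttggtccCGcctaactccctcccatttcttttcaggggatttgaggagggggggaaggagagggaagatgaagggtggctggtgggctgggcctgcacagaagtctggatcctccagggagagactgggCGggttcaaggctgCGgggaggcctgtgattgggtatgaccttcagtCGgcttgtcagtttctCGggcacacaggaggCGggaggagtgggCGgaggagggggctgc

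Fetal growth genes, a set of RNA-binding proteins, chromatin factors and transcription factors of embryonic tissue, mostly responded lower. Of 11, 2 responded higher and 6 lower in K27M cells (GC-adjusted 1 and 6), at a median of -0.59 (GC-adjusted -0.59); over all genes 15.8% were lower. In wild-type cells 10 rose and in K27M cells 6. Igf2bp1, an RNA-binding protein of fetal cells, rose from 0.0759, 0.488 and 0.333 to 23.8, 21.6 and 21.5 CPM in wild-type cells and from 1.67, 0.794 and 1.77 to 16.5, 16.5 and 16.7 CPM in K27M cells (-2.69, SE 0.48, adjusted p = 0.00232; GC-adjusted -2.77, adjusted p = 0.00143). The wild-type DMSO libraries held 1, 5 and 5 counts of Igf2bp1. Like Hoxa9 and Hoxa10, it could not reach 5 counts in 3 libraries through these alone. Its lower response, included in the count of 6, is therefore a description only. Mycn, a MYC family factor, rose from 1.90, 2.15 and 1.40 to 7.10, 5.99 and 7.74 CPM and from 2.92, 3.22 and 3.49 to 4.44, 6.27 and 5.45 CPM. The difference for Mycn was -1.20 (SE 0.28, adjusted p = 0.00799; GC-adjusted -1.45, adjusted p = 0.00359). Igf2bp2 and Igf2bp3, close relatives of Igf2bp1, rose in wild-type cells and did not pass in K27M cells. Igf2bp3 went from 58.5, 55.0 and 58.8 to 97.3, 90.9 and 87.1 CPM in wild-type cells and had 94.5, 92.9 and 91.6 CPM with DMSO and 97.1, 94.4 and 89.7 CPM with the inhibitor in K27M cells. The difference for Igf2bp3 was -0.66 (SE 0.08, adjusted p = 0.000234; GC-adjusted -0.40, adjusted p = 0.00251). The value of Igf2bp2 was -0.59 (SE 0.08, adjusted p = 0.000595; GC-adjusted -0.59, adjusted p = 7.96e-05). Hmga2, an architectural chromatin factor, was called higher with and without the GC adjustment: it rose 2.43-fold in wild-type cells, from 24.4, 20.0 and 20.4 to 51.1, 54.2 and 52.2 CPM, and 4.34-fold in K27M cells, from 15.9, 15.7 and 14.9 to 70.4, 65.3 and 66.2 CPM. The difference for Hmga2 was 0.84 (SE 0.11, adjusted p = 0.000368; GC-adjusted 1.12, adjusted p = 4.46e-06). The Hmga1 call (0.43) held in 3 of 12 fits without a library. Igf2bp2 and Igf2bp3 were named after their values were seen.

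Imprinted genes included the gene with the smallest adjusted p of those named here, Grb10, which encodes an adaptor that dampens insulin and growth factor receptor signalling. Grb10 stood at 5.09, 5.57 and 5.53 CPM in wild-type DMSO libraries and 37.8, 40.1 and 36.5 CPM in wild-type inhibitor libraries. It stood at 48.6, 47.0 and 46.0 CPM in K27M DMSO libraries and 42.5, 48.4 and 48.0 CPM in K27M inhibitor libraries. The 3 groups other than wild-type DMSO lay between 36.5 and 48.6 CPM, and the difference was -2.85 (SE 0.10, adjusted p = 1.29e-07; GC-adjusted -2.80, adjusted p = 8.65e-08). It was called in all 12 fits without a library, from -2.94 to -2.82. Asb4, a ubiquitin ligase subunit, rose 7.39-fold in wild-type and 2.34-fold in K27M cells. The difference for Asb4 was -1.66 (SE 0.14, adjusted p = 4.05e-05; GC-adjusted -1.28, adjusted p = 0.000314). Mest, a hydrolase-like protein, rose 1.94-fold and 2.49-fold (0.36, SE 0.05, adjusted p = 0.000609; GC-adjusted 0.50, adjusted p = 0.000135), and the neuronatin gene Nnat had 549.7, 634 and 654 CPM with DMSO and 579.9, 655 and 598 CPM with the inhibitor in wild-type cells against 318, 307 and 318 and 509, 515 and 521 CPM in K27M cells. The difference for Nnat was 0.72 (SE 0.09, adjusted p = 0.000369; GC-adjusted 0.38, adjusted p = 4.55e-05). Of 20 imprinted genes, 3 responded higher and 6 lower in K27M cells (GC-adjusted 3 and 6), at a median of -0.43 (GC-adjusted -0.18). The shares over all genes were 20.0% higher and 15.8% lower (GC-adjusted 10.9% and 10.5%).

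Among 29 growth factor receptors and ligands, 7 responded higher and 12 lower in K27M cells (GC-adjusted 3 and 11), at a median of -0.23 (GC-adjusted -0.20). For this list and the next, the shares over all genes were 20.0% higher and 15.8% lower (GC-adjusted 10.9% and 10.5%). The driver Pdgfb had 66.0, 82.0 and 84.5 CPM with DMSO and 98.9, 95.8 and 91.5 CPM with the inhibitor in wild-type cells, and 50.1, 46.3 and 49.1 and 73.7, 86.0 and 82.2 CPM in K27M cells. Its difference was 0.43 (SE 0.13, adjusted p = 0.0230; GC-adjusted 0.03, adjusted p = 0.833), and the call held in 6 of 12 fits without a library. Its receptor gene Pdgfra responded lower (-0.78, SE 0.14, adjusted p = 0.00220; GC-adjusted -0.71, adjusted p = 0.00377), with 25, 29.8 and 27.3 CPM with DMSO and 27.4, 24.9 and 22.4 CPM with the inhibitor in wild-type cells and 33.0, 29.2 and 31.0 and 14.9, 17.9 and 16.5 CPM in K27M cells. Met, the hepatocyte growth factor receptor, had 0.759, 0.293 and 0.333 CPM with DMSO and 2.28, 1.59 and 1.48 CPM with the inhibitor in wild-type cells and 2.60, 2.87 and 2.56 and 1.25, 2.38 and 1.18 CPM in K27M cells (-2.63, SE 0.52, adjusted p = 0.00389; GC-adjusted -2.36, adjusted p = 0.00631). At such low wild-type DMSO levels Met may have been listed only through the other libraries, so its lower response is a description only. The EGF family ligand gene Tgfa responded higher. The difference for Tgfa was 0.51 (SE 0.14, adjusted p = 0.0186; GC-adjusted 0.42, adjusted p = 0.0314). Pdgfra was named as the receptor of the driver, after its value was seen. Of 22 Wnt, BMP and Hedgehog ligands and antagonists, 3 responded higher and 3 lower in K27M cells (GC-adjusted 2 and 5), at a median of -0.27 (GC-adjusted -0.38). Frzb, a secreted Wnt antagonist, rose from 2.96, 3.61 and 3.60 to 56.8, 60.1 and 56.2 CPM in wild-type cells and from 5.66, 6.0 and 5.34 to 45.2, 43.4 and 37.0 CPM in K27M cells. The difference for Frzb was -1.20 (SE 0.15, adjusted p = 0.000286; GC-adjusted -1.23, adjusted p = 0.000102). Bmp7, a BMP ligand, responded higher (0.73, SE 0.09, adjusted p = 0.000291; GC-adjusted 0.46, adjusted p = 0.000604).

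Markers of glial lineages moved in both directions, where 20.0% of all genes responded higher and 15.8% lower (GC-adjusted 10.9% and 10.5%). In these bulk libraries fewer cells of a type and less RNA per cell cannot be told apart. Of 17 astrocyte markers, 4 responded higher and 6 lower in K27M cells (GC-adjusted 7 and 5), at a median of 0.12 (GC-adjusted 0.08). Gfap, the intermediate filament of astrocytes, had 40.1, 46.1 and 45.3 CPM with DMSO and 46.6, 43.7 and 43.1 CPM with the inhibitor in wild-type cells, and fell 2.74-fold in K27M cells, from 69.5, 68.0 and 71.9 to 22.7, 26.5 and 27.2 CPM. K27M cells were thus highest with DMSO and lowest with the inhibitor. The difference for Gfap was -1.48 (SE 0.11, adjusted p = 1.35e-05; GC-adjusted -1.75, adjusted p = 1.68e-07). The water channel gene Aqp4 did the same, with 6.68, 3.91 and 4.33 and 4.94, 3.68 and 4.78 CPM in wild-type cells and 16, 14.6 and 13.9 and 3.47, 2.70 and 2.36 CPM in K27M cells. The difference for Aqp4 was -2.18 (SE 0.30, adjusted p = 0.000611; GC-adjusted -1.60, adjusted p = 5.55e-05). Aldoc, the aldolase of astrocytes, went the other way, falling from 389.7, 468 and 443 to 329.5, 336 and 307 CPM in wild-type cells and rising from 171, 164 and 174 to 215, 216 and 225 CPM in K27M cells (0.78, SE 0.09, adjusted p = 0.000225; GC-adjusted 0.57, adjusted p = 2.72e-05), and S100b, a calcium-binding protein gene, rose 1.77-fold in K27M cells while its wild-type response did not pass (adjusted p = 0.395; 0.71, SE 0.15, adjusted p = 0.00632; GC-adjusted 0.78, adjusted p = 0.00342).

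Of 13 oligodendrocyte precursor markers, 3 responded higher and 4 lower in K27M cells (GC-adjusted 3 and 6), at a median of -0.34 (GC-adjusted -0.16). Gpr17, a receptor of committed precursors, fell 4.01-fold in wild-type cells, from 22.2, 25.4 and 26.3 to 6.72, 6.14 and 5.58 CPM, and 9.96-fold in K27M cells, from 19.3, 16.5 and 18.6 to 2.15, 1.51 and 1.73 CPM. The difference for Gpr17 was -1.31 (SE 0.19, adjusted p = 0.000824; GC-adjusted -1.51, adjusted p = 0.000134). Olig1, a lineage factor, fell 4.89-fold and 3.25-fold (0.59, SE 0.11, adjusted p = 0.00276; GC-adjusted 0.17, adjusted p = 0.00222), and the proteoglycan gene Bcan rose 1.54-fold in K27M cells while its wild-type response did not pass (adjusted p = 0.700; 0.66, SE 0.10, adjusted p = 0.000889; GC-adjusted 0.25, adjusted p = 0.000396). Of 9 mature oligodendrocyte markers, 1 responded higher and 3 lower in K27M cells (GC-adjusted 0 and 2), at a median of -0.36 (GC-adjusted -0.46). Ugt8a, an enzyme of myelin lipids, rose from 1.59, 2.05 and 1.73 to 19, 17.2 and 20.0 CPM in wild-type cells and from 11.8, 11.2 and 8.91 to 20.1, 16.4 and 16.8 CPM in K27M cells. The difference for Ugt8a was -2.65 (SE 0.21, adjusted p = 2.02e-05; GC-adjusted -1.96, adjusted p = 0.000159). Tspan2, a tetraspanin of oligodendrocytes, rose in wild-type and fell in K27M cells (2.26-fold and 1.83-fold; -2.05, SE 0.24, adjusted p = 0.000268; GC-adjusted -1.51, adjusted p = 0.000616). Of 23 neuronal markers 14 rose in wild-type and 13 in K27M cells, and 1 responded higher and 3 lower in K27M cells (GC-adjusted 2 and 6), at a median of -0.11 (GC-adjusted -0.17), where 20.0% and 15.8% of all genes were called higher and lower (GC-adjusted 10.9% and 10.5%). Nefm, a neurofilament gene, rose 5.17-fold and 2.05-fold (-1.33, SE 0.19, adjusted p = 0.000634; GC-adjusted -1.53, adjusted p = 0.000346).

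Stem cell and Notch genes also differed in both directions. Over all genes 20.0% responded higher and 15.8% lower (GC-adjusted 10.9% and 10.5%). Of 22 neural stem cell markers, 3 responded higher and 8 lower in K27M cells (GC-adjusted 3 and 11), at a median of -0.07 (GC-adjusted -0.22). Hes5, a repressor induced by Notch in neural progenitors, had 59.1, 75.6 and 79.0 CPM with DMSO and 49.0, 55.2 and 52.7 CPM with the inhibitor in wild-type cells. In K27M cells it had 67.1, 64.3 and 70.6 CPM with DMSO and 29.8, 29.2 and 29.1 CPM with the inhibitor, so the genotypes overlapped with DMSO and not with the drug. The difference for Hes5 was -0.75 (SE 0.14, adjusted p = 0.00245; GC-adjusted -1.19, adjusted p = 5.24e-07). Gli3, a Hedgehog pathway repressor, rose in wild-type cells from 26.7, 24.3 and 27.5 to 52.5, 46.9 and 49.7 CPM and did not change beyond the threshold in K27M cells (adjusted p = 0.176; -0.81, SE 0.09, adjusted p = 0.000131; GC-adjusted -0.75, adjusted p = 1.93e-05). Lfng, which modifies Notch receptors, fell 2.75-fold in wild-type and 1.79-fold in K27M cells. The difference for Lfng was 0.62 (SE 0.11, adjusted p = 0.00235; GC-adjusted 0.25, adjusted p = 0.00265). Of 22 Notch pathway genes, 3 responded higher and 5 lower in K27M cells (GC-adjusted 2 and 14), at a median of -0.03 (GC-adjusted -0.30), so this list's count of lower responses rose when the trend was removed. Hey2, a Notch target with low levels, had 1.75, 2.34 and 2.13 CPM with DMSO and 6.84, 7.15 and 6.15 CPM with the inhibitor in wild-type cells and 6.82, 6.62 and 6.56 and 3.12, 3.17 and 4.63 CPM in K27M cells (-2.58, SE 0.24, adjusted p = 6.9e-05; GC-adjusted -2.34, adjusted p = 0.0001).

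In 5 abundant genes, taken as the largest of their kind, the genotypes differed under the inhibitor and by less than 0.25 on the log2 scale with DMSO. Besides Hes5 these were Ttyh1, a chloride channel gene of neural progenitors, Ppp2r2b, a phosphatase subunit gene, Olfml2b, a matrix protein gene, and Rgma, a guidance molecule gene. Ttyh1 had 235, 263 and 261 CPM with DMSO and 266, 285 and 283 CPM with the inhibitor in wild-type cells, and fell from 287, 281 and 289.9 to 156, 170.4 and 177 CPM in K27M cells. The difference for Ttyh1 was -0.90 (SE 0.08, adjusted p = 4.74e-05; GC-adjusted -1.10, adjusted p = 1.84e-07). Ppp2r2b stood at 45.3 to 47.3 CPM in all 6 DMSO libraries, and under the inhibitor at 39.7, 37.5 and 39.6 CPM in wild-type and 27.4, 24.4 and 21.1 CPM in K27M cells. The difference for Ppp2r2b was -0.68 (SE 0.11, adjusted p = 0.00139; GC-adjusted -0.60, adjusted p = 0.000828). Olfml2b fell 4.31-fold in wild-type and 2.56-fold in K27M cells. The difference for Olfml2b was 0.75 (SE 0.13, adjusted p = 0.00235; GC-adjusted 0.56, adjusted p = 0.00171). Rgma fell 1.35-fold and 1.75-fold (-0.38, SE 0.13, adjusted p = 0.0458; GC-adjusted -0.79, adjusted p = 1.15e-05), a call held in 10 of 12 fits without a library.

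Subunits of the drug's target complex were called in either direction about as often as all genes, but the 4 calls were all lower. Of 11 PRC2 subunits, 0 responded higher and 4 lower in K27M cells (GC-adjusted 0 and 2), at a median of -0.37 (GC-adjusted -0.14). Of all genes 35.8% were called in either direction (GC-adjusted 21.4%) and 15.8% were lower (GC-adjusted 10.5%). Without wild-type DMSO replicate 1 the PRC2 counts were 0 and 7, where 3034 and 3786 of all 13119 genes were called. With the GC trend removed as well they were 1 and 3, where 2182 and 2043 genes were called. Ezh2 had 131, 108 and 109 CPM with DMSO and 143, 128 and 137 CPM with the inhibitor in wild-type cells, groups that overlapped, and fell in K27M cells from 202, 197 and 193 to 161, 141 and 149.8 CPM. The difference for Ezh2 was -0.62 (SE 0.11, adjusted p = 0.00238; GC-adjusted -0.25, adjusted p = 0.00225). Jarid2, which helps PRC2 bind chromatin, rose 1.58-fold in wild-type cells, from 60.2, 51.4 and 56.1 to 87.4, 84.2 and 94.0 CPM, and had 88.5, 84.6 and 88.4 CPM with DMSO and 89.3, 82.6 and 79.1 CPM with the inhibitor in K27M cells. The difference for Jarid2 was -0.72 (SE 0.10, adjusted p = 0.000568; GC-adjusted -0.75, adjusted p = 0.000266). The core subunits Suz12 (-0.97, SE 0.38, adjusted p = 0.0657; GC-adjusted -0.39, adjusted p = 0.156) and Eed (-0.06, SE 0.10, adjusted p = 0.648; GC-adjusted 0.04, adjusted p = 0.792) were not called; in wild-type DMSO replicate 1 Suz12 was 80.3 CPM against 33.5 and 42.1 CPM. Of 19 subunits of PRC1, the complex whose CBX proteins read the PRC2 mark, 4 responded higher and 7 lower in K27M cells (GC-adjusted 0 and 2), at a median of -0.23 (GC-adjusted -0.02). Pcgf2, a RING finger subunit, kept its call: it rose from 5.31, 6.15 and 3.27 to 17.9, 21.9 and 20.6 CPM in wild-type cells and from 8.40, 9.22 and 9.29 to 19.3, 17.6 and 15.1 CPM in K27M cells. The difference for Pcgf2 was -1.12 (SE 0.25, adjusted p = 0.00694; GC-adjusted -1.39, adjusted p = 0.00182). Its relative Bmi1, a Cdkn2a repressor, did not (-0.83, SE 0.14, adjusted p = 0.00151; GC-adjusted 0.01, adjusted p = 0.985), nor did Ring1 (0.46, SE 0.10, adjusted p = 0.00718; GC-adjusted 0.07, adjusted p = 0.621). The genes for H3.3 itself, H3f3a (0.06, SE 0.13, adjusted p = 0.724; GC-adjusted 0.05, adjusted p = 0.790) and H3f3b (-0.08, SE 0.06, adjusted p = 0.317; GC-adjusted 0.47, adjusted p = 0.105), were not called. Counts by gene do not separate a mutant from a wild-type H3.3 transcript.

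The counts of metabolic, cell cycle and other lists are to be read against the 20.0% of all genes that responded higher and the 15.8% that responded lower (GC-adjusted 10.9% and 10.5%). Of 21 hypoxia and glycolysis genes, 9 responded higher and 4 lower in K27M cells (GC-adjusted 6 and 4), at a median of 0.23 (GC-adjusted 0.08). Slc2a1, the glucose transporter GLUT1, fell from 100.0, 118 and 117 to 62.9, 66.3 and 66.8 CPM in wild-type cells and had 60.1, 59.9 and 62.6 CPM with DMSO and 66.3, 66.9 and 64.1 CPM with the inhibitor in K27M cells. The difference for Slc2a1 was 0.88 (SE 0.09, adjusted p = 0.000121; GC-adjusted 0.65, adjusted p = 8.38e-06). Gpi1, the second enzyme of glycolysis, fell 1.98-fold in wild-type cells (0.84, SE 0.11, adjusted p = 0.000493; GC-adjusted 0.63, adjusted p = 4.4e-05), while Pdk1, a kinase that inhibits pyruvate entry to mitochondria, fell in K27M cells from 17.0, 20.0 and 17.7 to 12.1, 10.6 and 10.9 CPM and rose in wild-type cells from 12.4, 13.2 and 11.9 to 15.1, 13.8 and 15.9 CPM. The difference for Pdk1 was -0.96 (SE 0.13, adjusted p = 0.000648; GC-adjusted -0.79, adjusted p = 0.000960). Of 24 cholesterol synthesis genes 20 fell in wild-type and 22 in K27M cells, and 5 responded higher and 7 lower in K27M cells (GC-adjusted 3 and 5), at a median of -0.07 (GC-adjusted 0.00). Hmgcs1, which makes the precursor of mevalonate, fell 1.51-fold and 2.37-fold. The difference for Hmgcs1 was -0.65 (SE 0.10, adjusted p = 0.00103; GC-adjusted -0.20, adjusted p = 0.0237). Of 20 mitosis genes 11 fell in wild-type and 14 in K27M cells, and 1 responded higher and 7 lower in K27M cells (GC-adjusted 1 and 3), at a median of -0.26 (GC-adjusted -0.18); the calls of Bub1 (-0.82) and Top2a (-0.69) held in 3 and 2 of 12 fits without a library. Of 20 DNA replication genes, 4 responded higher and 3 lower in K27M cells (GC-adjusted 2 and 1), at a median of 0.04 (GC-adjusted 0.06). With all 12 libraries, the shares of mitosis and DNA replication genes called in either direction were near or below those of all genes (35.8%, GC-adjusted 21.4%). For mitosis this rested on wild-type DMSO replicate 1. Without that library 4 mitosis genes responded higher and 12 lower, where 3034 and 3786 of all 13119 genes did. With the GC trend removed as well, the mitosis counts were 1 and 11, where those of all genes were 2182 and 2043. Of 47 cytosolic ribosomal protein genes, 13 responded higher and 2 lower in K27M cells (GC-adjusted 8 and 4), at a median of 0.16 (GC-adjusted 0.14). Of 36 collagen and matrix genes, 8 responded higher and 7 lower in K27M cells (GC-adjusted 5 and 14), at a median of 0.07 (GC-adjusted -0.20), with Lama2, a laminin chain (-1.30, SE 0.19, adjusted p = 0.000958; GC-adjusted -1.19, adjusted p = 0.000869), among the lower and Col9a3, a cartilage collagen (0.91, SE 0.15, adjusted p = 0.00145; GC-adjusted 0.56, adjusted p = 0.0336), among the higher. The remaining counts are given as higher and lower, with the GC-adjusted counts after them. They were 0 and 1 (GC-adjusted 1 and 0) of 14 interferon response genes, 1 and 1 (GC-adjusted 0 and 1) of 13 genes of MHC class I presentation and 0 and 2 (GC-adjusted 0 and 3) of 10 mesenchymal markers. Of 46 listed axon guidance genes 43 were tested, and 9 and 10 (GC-adjusted 5 and 10) were called. Of 22 genes of the unfolded protein and amino acid stress responses the counts were 5 and 2 (GC-adjusted 4 and 3), and of 15 housekeeping genes 2 and 3 (GC-adjusted 2 and 0). Of 15 transcription factors of other lineages they were 3 and 1 (GC-adjusted 2 and 2), and of 5 proneural factors 1 and 3 (GC-adjusted 1 and 2). The higher calls among factors of other lineages include genes near 0 counts in K27M DMSO libraries. Such genes had to be listed through other libraries, so their higher response is a description only.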

How the data were processed

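The data are RNA-seq of 12 libraries. Per the labels, polyadenylated RNA was prepared by a TruSeq kit for a HiSeq2500. Kallisto and sleuth were used on GRCm38 (mm10), per the submitters' processing notes, without stated versions or strand setting. Deposited were 4 tables by the authors of estimated counts per transcript, each divided by a size factor per library. The step between low values gave that factor, which was undone; 45.0 to 57.1% of low values of single-transcript genes were then whole (tolerance 0.01). DMSO libraries came from the first table and inhibitor libraries from the fourth. The 34436 of 44294 transcripts listed in all 4 tables were summed per gene and rounded; 0.445 to 0.572% of counts had no gene name and were left out. edgeR 4.0.16 in R 4.3.3 (filterByExpr, TMM, quasi-likelihood test, Benjamini-Hochberg adjustment, two-sided) was fitted over the 4 groups and tested on simulated data. GC trends were removed per library with a lowess curve (span 0.3) of log2 CPM deviations on GC content. GC content and positions came from GENCODE M21 (GRCm38), and promoters from RefSeq (GRCm38.p6). Limma 3.58.1 and DESeq2 1.42.0 were alternatives. Named genes were 8 always given, the 12 largest called differences in each direction at or above the median abundance, 5 for each pattern of opposed, narrowed and widened levels, and up to 4 called members of each list, without clone names and pseudogenes. The members and lists were chosen with earlier results of these data known. Some genes that the rule names are not reported here.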

Additional observations from a re-analysis of the deposited data

Results flagged for a closer look

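The response to the inhibitor differed between genotypes in 2606 genes that were higher and 2056 that were lower in K27M cells, by the interaction term of the edgeR fit. Both single responses passed in opposite directions in the genes that follow, taken from the 5 largest differences of each orientation at or above the median abundance. The differences were 4.25 for Entpd5, 1.69 for Gpd1, 1.59 for Psd, 1.20 for Timp4, 1.18 for Ptprn, -1.68 for Anks1b, -1.37 for Tmem47, -1.25 for Chrdl1 and -1.19 for Eps15 on the log2 scale. With all listed transcripts summed Entpd5 had a difference of 0.43 and negative fold changes in both genotypes (-0.92 in wild-type and -0.48 in K27M cells), so its opposite directions rest on which transcripts were summed.

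Transcripts outside those listed in all 4 tables brought in 254 more tested genes where all 12 values existed in some table. Of these, 171 rose and 18 fell with the inhibitor in wild-type cells, and 158 rose and 23 fell in K27M cells. Over all 13300 genes in that fit 3752 rose and 3707 fell in wild-type cells, and 3017 and 2543 in K27M cells. Of the 254 genes 56 had 0 counts in wild-type DMSO libraries, so that they could only rise there. A gene with too few counts for the DMSO table had to be listed through inhibitor libraries. The listing itself therefore favoured a rise, also for genes with more than 0 counts, and these counts are a description only.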

How the results depend on the processing

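The counts of genes whose response was higher and lower in K27M cells kept within 1.5 times of 2606 and 2056 with other size factors, filters, tables, transcripts and tools, with these exceptions. Higher genes numbered 1420 with the GC trend removed and 1620 with the replicate block as well, and 1692 to 3034 when 1 library was left out. Lower genes numbered 1539 to 3786, the highest without wild-type DMSO replicate 1. DESeq2 called 2358 and 2350 genes, limma 2594 and 2185. The replicate numbers gave no consistent pairing of the libraries, although some same-numbered libraries were alike. Correlations of same-numbered libraries ran from -0.02 to 0.26, and those of other pairs between groups from -0.31 to 0.13. Of the 18 same-numbered pairs 5 exceeded 0.1, and 7 of 12 libraries were closest to their own number. The replicate block gave 2898 higher and 2873 lower genes, and 1620 and 1577 with the GC trend removed.

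Of 138 named genes 133 were called. With the GC trend removed 24 lost their call without a change of sign, and 22 did with the block added. Over the 12 fits that left out 1 library, 183 gene results lost their call and 1467 kept their status. Of the 138, 9 changed sign when the GC trend was removed, with the block added, or without wild-type DMSO replicate 1 as well, an alternative chosen after seeing the data. The values were 0.42, 0.44 and 0.63 for Asf1a; 0.19, 0.19 and 0.39 for B2m; 0.0065, 0.0116 and 0.13 for Bmi1; 0.29, 0.31 and 0.47 for Dnajb9; 0.0404, 0.0363 and 0.0075 for Eed; 0.47, 0.46 and 0.64 for H3f3b; 0.0098, 0.0095 and 0.0697 for Mcm4; 0.0555, 0.0528 and 0.12 for Rrm2b; and 0.18, 0.18 and 0.24 for Spred1. In the last of these fits Asf1a (adjusted p = 0.0193) and B2m (adjusted p = 0.0254) were called with the changed sign. Hprt (0.16) and Rpl5 (0.16) changed sign in the last alone, and H3f3a ran from -0.0837 to 0.0918 when 1 library was left out. The cause was not tested. Depth limits genes near 0 counts in wild-type DMSO libraries, Hoxa9 and Hoxa10 among them.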
